A study of Mus musculus with 12 samples.

Results

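Collagens and laminins are the structural proteins of basement membranes and fibrous matrix. Their genes were picked by name, as every gene of the count table whose symbol starts as a collagen chain (Col, a number, a, a number) or a laminin chain (Lama, Lamb or Lamc with a number). The rule returned 56 of 24421 genes. One of them, Col4a3bp, encodes a ceramide transfer protein and is no collagen, which left 44 collagen and 11 laminin genes. Of these 55, 54 had at least 10 counts in 6 or more libraries and were tested. The one that did not was Col10a1, a collagen of growing cartilage, with 0 counts in 6 libraries.

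A laminin is a trimer of an alpha, a beta and a gamma chain that assembles into a sheet on the surface of cells. Type IV collagen forms a second network in the same basement membrane, and nidogen and perlecan link them. In brain these sheets surround endothelial cells and pericytes and cover the surface of the tissue, while fibroblasts of the meninges and of large vessels make fibrillar collagens and type VI collagen. A further set of collagens is transcribed by neurons.

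The RNA came from striatum of both sides in male C57BL/6J mice, an inbred strain. All animals had drunk 20% ethanol in a limited-access procedure called Drinking-in-the-Dark, with sessions of 2 h that began 3 h into the dark phase, in 3 cycles of 2 days. Every mouse got saline before drinking in the first cycle. In the other 2 cycles, 6 libraries' animals got saline again and 6 libraries' animals got varenicline at 2 mg/kg, 30 min ahead of drinking on the second day of the cycle. Varenicline is a partial agonist of nicotinic acetylcholine receptors. There was no group without ethanol, the sources used here do not give the age of the animals, and nothing in the labels says that each library is 1 mouse, so p-values measure only the spread between these samples. Values are CPM scaled by TMM for comparing libraries, and the authors' FPKM for comparing genes, since FPKM is per length. A fold change is log2, varenicline minus saline, from edgeR's quasi-likelihood test, and calls were made at a Benjamini-Hochberg adjusted p of 0.05 over all 15111 genes tested.

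Library totals ran from 13340420 to 27917715 counts. Markers of striatal projection neurons, which define the tissue, were present in all libraries (12 of 12 markers tested, 0 at 0 in any library). Their sum was 8028 to 12580 CPM in saline, 10691 to 13911 CPM in varenicline 1 to 5 and 8651 CPM in varenicline 6. All 12 were higher in the varenicline group, 5 of them at an unadjusted p under 0.05. Of 10 oligodendrocyte markers 9 were higher, 4 at such a p. Their sum was 11165 to 13822 CPM in saline, 12899 to 13810 CPM in varenicline 1 to 5 and 10530 CPM in varenicline 6. The library varenicline 6 stood apart from the other varenicline libraries in markers of cortical excitatory neurons. Their sum was 1148 to 1972 CPM in saline, 447 to 934 CPM in varenicline 1 to 5 and 1693 CPM in varenicline 6, and all 14 of 14 markers were lower in the varenicline group, 12 of them at an unadjusted p under 0.05. Where leaving out varenicline 6 alters which side of the adjusted threshold a gene named below lies on, both values are given. The varenicline libraries 1 and 3 stood apart in markers of septum and pallidum, with sums of 365 and 323 CPM against 183 to 278 CPM in the other 10 libraries.

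None of the 54 tested members passed the adjusted threshold in edgeR, where 0% of all genes tested passed. DESeq2 called none either among the members for which it gave an adjusted p, against 2.63% of all genes tested. That share counts as not called the 2637 genes to which DESeq2 gave no adjusted p. At an unadjusted p under 0.05, 5 members were higher with varenicline, Col6a3, Col25a1, Col4a5, Col5a3 and Col9a1. That is 9.26% of the members beside 7.27% of all genes tested. In the other direction stood 8 members, among them Col24a1, Col11a1, Col5a1, Col6a2, Col4a1, Col12a1 and Col22a1, which is 14.8% beside 9.64%. The median log2 fold change was 0.06 over the members and 0.01 over all genes tested. In no member did the 6 varenicline values all lie on one side of the 6 saline values, beside 0.754% of all genes tested.

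Without varenicline 6 more members passed, as did more genes in general. The adjusted threshold was then passed by 9 members, Col6a3 on the higher side (3.6% of all genes) and 8 on the lower side (7.16% of all genes), among them Col24a1, Col4a1, Col5a1, Col11a1, Col6a2, Col4a2 and Col16a1. In 7 members varenicline 1 to 5 then lay under all saline libraries (5.31% of all genes) and in 0 over them (2.1% of all genes), a count added after seeing the data. In a fit of all 12 libraries adjusted for the score of the cortical markers (their mean log2 CPM), an unadjusted p under 0.05 was left to 0 members on the higher side and to Col20a1 on the lower side, beside 3.05% and 1.94% of all genes. No member passed the adjusted threshold in that fit, beside 0.0794% of all genes. Among the varenicline libraries only varenicline 6, at 5.89, had a cortical score within the saline range of 5.26 to 6.05. The adjusted values therefore lean on that library. The plot of fold changes shows members on both sides of 0. Of the 43 tested collagens, 24 fold changes were above 0 and 19 below, where 52.3% of all genes tested were above 0.

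**Figure D1:**
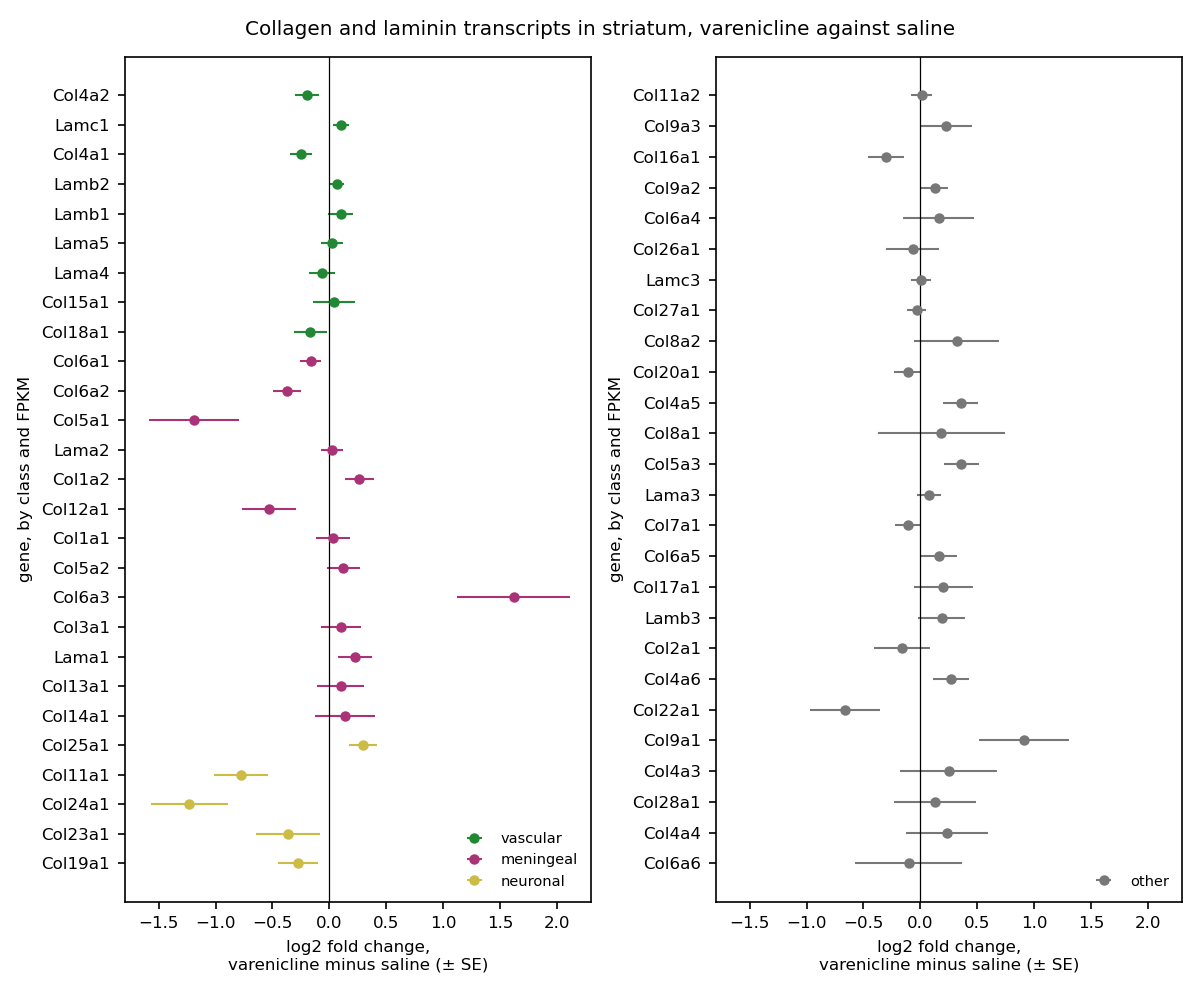
Log2 fold change of the tested collagen and laminin genes reported here, varenicline minus saline, with its standard error (6 libraries per group), ordered by class and by mean FPKM. Col6a3 lies farthest to the right at 1.62 and Col24a1 farthest to the left at -1.23, while the 9 vascular genes lie between -0.25 and 0.11.

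The vascular class held 9 genes for chains of the basement membrane of blood vessels. Its most abundant members were Col4a2 (10.8 FPKM on average over all libraries), Lamc1 (9.11 FPKM), Col4a1 (8.15 FPKM), Lamb2 (7.71 FPKM) and Lamb1 (7.55 FPKM). Of the 9, Col4a1 alone had an unadjusted p under 0.05, on the lower side (11.1%, beside 9.64% of all genes tested). The median log2 fold change of the class was 0.02. In bulk tissue, fewer cells of a type and less RNA per cell cannot be told apart.

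Col4a1 and Col4a2 encode the alpha 1 and alpha 2 chains, which together form the common type IV collagen. The genes lie head to head on chromosome 8 (mm10), Col4a1 on the minus strand at chr8:11198423-11312826 and Col4a2 on the plus strand at chr8:11312829-11449287 in the count table. RefSeq places the starts so close that both genes begin within the stretch printed here, which is why it is shown. It is the plus strand of GRCm38.p6 at chr8:11312800-11312829, and capitals mark the 22 bases from the start of Col4a2 to the start of Col4a1.
Col4a1 and Col4a2 starts: tcggcAGTGCGCGGGCGGCGTCTCCAAggg

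Col4a1 measured 51.7 CPM at the lowest, 55.4 CPM at the median and 61.8 CPM at the highest saline library. With varenicline the lowest was 42.4 CPM, the median 43.8 CPM and the highest 65.3 CPM. The varenicline libraries 1 to 5 held within 42.4 to 45.1 CPM, all under the lowest saline library, while varenicline 6 exceeded every saline library. The log2 fold change was -0.25 ± 0.10 (SE; unadjusted p = 0.0193, adjusted p = 0.207; lower than the saline mean in 5 of 6 libraries). Without varenicline 6 it was -0.35 with an adjusted p of 0.00121, and after adjustment for the cortical score it was -0.04.

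Col4a2 had the same arrangement of libraries. Its saline values had a lowest of 64.2, a median of 71.0 and a highest of 78.6 CPM, and its varenicline values had 53.2, 58.2 and 88.3 CPM. Again varenicline 1 to 5, at 53.2 to 63.2 CPM, sat under every saline library and varenicline 6 sat over them all. The log2 fold change was -0.19 ± 0.11 (SE; adjusted p = 0.367) with all libraries and -0.31 (adjusted p = 0.0088) without varenicline 6. After adjustment for the cortical score it was -0.0067 (unadjusted p = 0.957). The log2 ratio of Col4a1 to Col4a2 within a library, looked at after the values were seen, averaged -0.35 ± 0.09 in saline and -0.40 ± 0.10 in varenicline (SD, n = 6 each), a difference of -0.05.

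The 5 laminin genes of the class encode the alpha 4 and alpha 5, beta 1 and beta 2, and gamma 1 chains of the vessel wall laminins. Their fold changes lay between -0.07 and 0.11, and 0 of the 5 had an unadjusted p under 0.05. Lamc1, the gamma chain shared by most laminins of brain, was 57.3 CPM at its lowest, 63.9 CPM at its median and 79.6 CPM at its highest in saline. With varenicline it was 65.8, 70.2 and 73.4 CPM. The varenicline values all fell inside the saline range, and the log2 fold change was 0.11 ± 0.07 (SE; 95% interval -0.04 to 0.25, adjusted p = 0.457). Lamb1 (0.10), Lamb2 (0.07), Lama5 (0.02) and Lama4 (-0.07) were as near to 0.

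**Figure D2:**
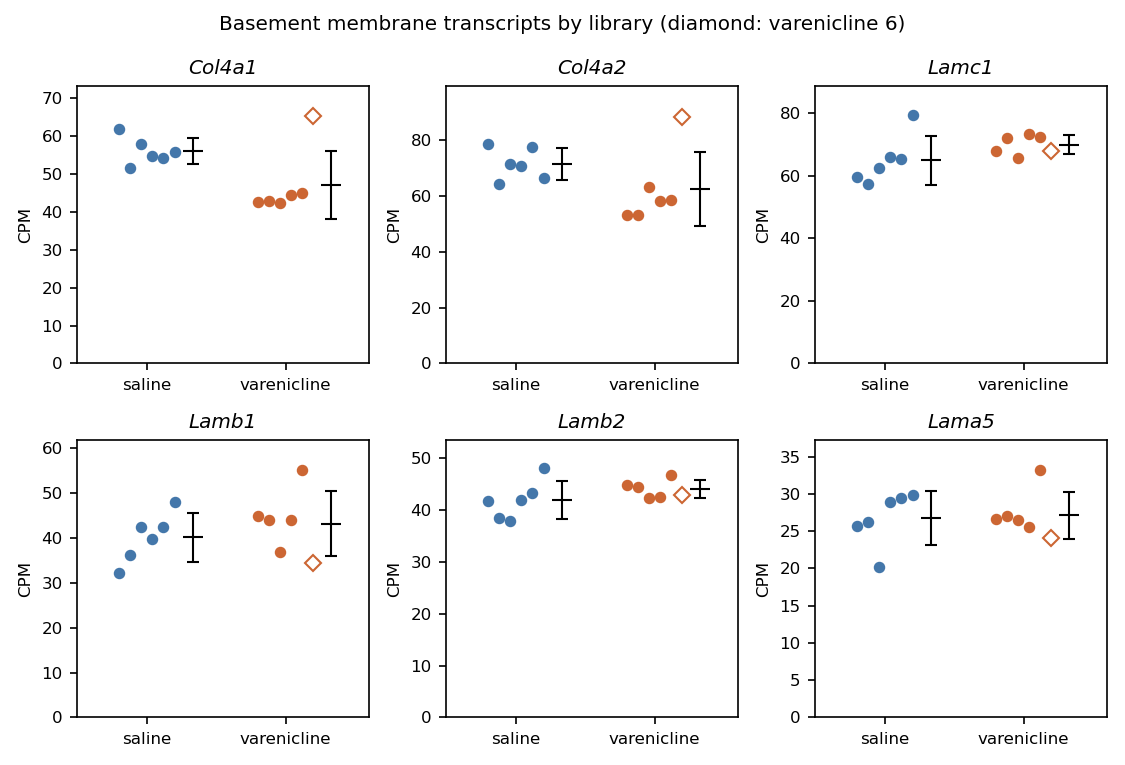
CPM of vascular basement membrane genes in each library by group, with the mean and SD of 6 libraries beside the points and varenicline 6 as an open diamond. For Col4a1 the varenicline libraries 1 to 5 form a tight row at 42.4 to 45.1 CPM under all saline points and varenicline 6 is at 65.3 CPM, while for Lamc1 the groups overlap.

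The log2 ratio of Col4a1 to Lamc1 within a library averaged -0.21 ± 0.19 in saline and -0.59 ± 0.26 in varenicline (SD, n = 6 each), a difference of -0.38, and of -0.48 without varenicline 6. This and the other ratios were chosen after the values were seen, so they are descriptions with no test. Of 14 endothelial markers 7 were above 0 and 7 below, 2 of the former and 0 of the latter at an unadjusted p under 0.05, with sums of 467 to 515 CPM in saline, 463 to 520 CPM in varenicline 1 to 5 and 532 CPM in varenicline 6. Of 12 markers of mural cells (pericytes and smooth muscle) 7 were above 0 and 0 had such a p, with sums of 245 to 290 CPM and 237 to 279 CPM. No marker of either list was at 0 in any library. After adjustment for the endothelial score the log2 fold change of Col4a1 was -0.30 (adjusted p = 0.0841). In that fit 1824 of all genes tested were lower at an unadjusted p under 0.05, beside 1457 without the score. On the higher side the numbers were 1515 and 1099. The adjusted threshold was passed by 13 genes on the higher side and 7 on the lower side, beside 0 without the score.

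The remaining vascular collagens are XV and XVIII, basement membrane collagens whose ends release the fragments restin and endostatin. Col15a1 measured 6.34 to 9.71 CPM in saline and 5.18 to 12.8 CPM in varenicline, with a log2 fold change of 0.04. Its sign turned in several of the other analyses. Col18a1 measured 4.57 to 7.12 and 3.57 to 5.91 CPM, with a log2 fold change of -0.17. In both genes the groups overlapped.

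The meningeal class held 13 genes, mostly of fibrillar collagens, type VI collagen and laminins outside the vessel wall. Its name comes from textbook knowledge of brain cells, and the cell source of each gene in these libraries was not tested. With the fibroblast score as a covariate the log2 fold changes of Col5a1 and Col12a1 were -1.21 and -0.53. Of the 13, 4 had an unadjusted p under 0.05, Col6a3 on the higher side and Col5a1, Col6a2 and Col12a1 on the lower side. That is 7.69% and 23.1%, beside 7.27% and 9.64% of all genes tested. The median log2 fold change was 0.10. The sum of 14 meningeal fibroblast markers was 111 to 177 CPM in saline and 101 to 190 CPM in varenicline. Of these markers 8 were above 0 and 6 below, with 1 lower at an unadjusted p under 0.05 and 0 at 0 in any library. Of the 14, 4 also stand in the list of matrix partners described further on.

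Col1a1, Col1a2 and Col3a1 encode the classical fibrillar collagens I and III. Their log2 fold changes were 0.03, 0.26 and 0.10. Col1a2 was the most abundant of them, with a lowest of 8.78, a median of 10.3 and a highest of 12.7 CPM in saline and 9.36, 12.3 and 16.9 CPM in varenicline. The highest value was in varenicline 1, and the groups overlapped (SE 0.13, unadjusted p = 0.0587, adjusted p = 0.314). Across all 12 libraries Col1a2 went with the meningeal fibroblast score at a Pearson r of 0.55 (permutation adjusted p = 0.0867 over 4 relations; Spearman rho 0.41, adjusted p = 0.258). Within saline r was 0.25 and within varenicline 0.84 (exact permutation p = 0.618 and 0.0319, n = 6 each). Without saline 2 and varenicline 1, the libraries farthest from the median score, r was 0.33, so the value of 0.55 rested in part on those libraries. With that score as a covariate in edgeR the log2 fold change of Col1a2 was 0.27 (unadjusted p = 0.0249, adjusted p = 0.227). The fibroblast score was highest in varenicline 1 (3.01), saline 2 (2.67), varenicline 5 (2.49) and saline 5 (2.48). These libraries also had the most RNA of choroid plexus markers, described further on. The part of either tissue in the score was not tested.

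Type VI collagen forms beaded filaments from alpha 1, alpha 2 and one further chain, which in most tissues is alpha 3. Col6a1 was the most abundant of all members at 39.2 FPKM on average over all libraries, ahead of Col6a2 at 8.11 FPKM and Col6a3 at 0.858 FPKM. Col6a1 had a lowest of 136, a median of 156 and a highest of 178 CPM in saline and 110, 140 and 173 CPM in varenicline. The groups overlapped, with a log2 fold change of -0.16 ± 0.09 (SE; adjusted p = 0.385), and -0.23 (adjusted p = 0.0880) without varenicline 6. Col6a2 had 28.1, 30.4 and 36.2 CPM in saline and 18.0, 23.3 and 34.3 CPM in varenicline. Here varenicline 1 to 5 (18.0 to 24.0 CPM) lay under all saline libraries and varenicline 6 lay among them. The log2 fold change was -0.37 ± 0.12 (SE; adjusted p = 0.169), and -0.49 with an adjusted p of 0.00395 without varenicline 6. Adjusted for the cortical score it was -0.17 (unadjusted p = 0.255).

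Col6a3 went the other way, mainly in 2 libraries. In saline its lowest, median and highest values were 2.93, 3.66 and 4.26 CPM, and in varenicline 3.37, 5.36 and 26.8 CPM. The high values were 26.8 CPM in varenicline 1 and 24.7 CPM in varenicline 3, while the other 4 varenicline libraries had 3.37 to 6.48 CPM. Of those, varenicline 4 (6.48 CPM) also exceeded every saline library. The log2 fold change was 1.62 ± 0.49 (SE; unadjusted p = 0.00501, adjusted p = 0.149), the largest of all tested members in the higher direction. Without varenicline 6 it was 1.81 (adjusted p = 0.0199), without varenicline 1 it was 1.20, without varenicline 3 it was 1.23, and without both, a choice made after seeing the data, it was 0.26 (unadjusted p = 0.204). Adjusted for the cortical score it was 0.92 (unadjusted p = 0.170). The 2 libraries are those with the highest sums of septal and pallidal markers. Of these 12 markers, 10 were higher, 7 of them at an unadjusted p under 0.05, with sums of 185 to 278 CPM in saline and 183 to 365 CPM in varenicline and 0 markers at 0 in any library. Their part in the Col6a3 values was not tested. The log2 ratio of Col6a3 to Col6a1 averaged -5.40 ± 0.34 in saline and -4.15 ± 1.42 in varenicline (SD, n = 6 each), a difference of 1.253, and of 1.54 without varenicline 6.

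**Figure D3:**
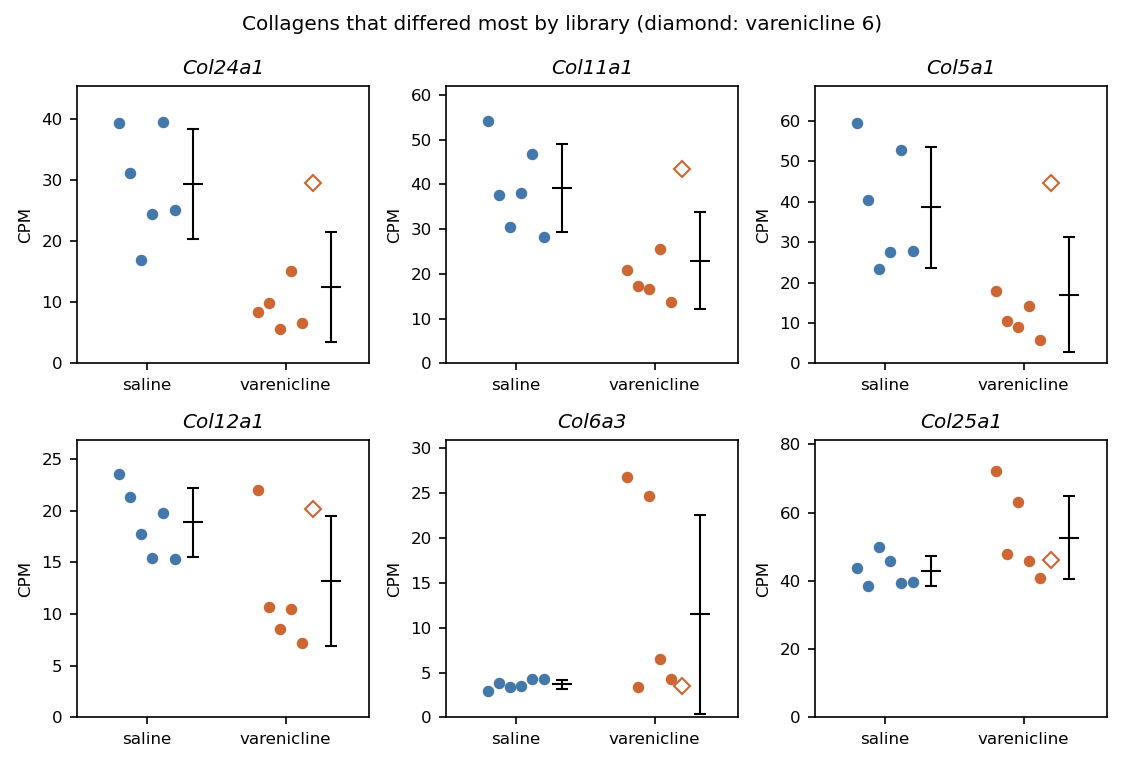
CPM of 6 collagen genes in each library by group, with the mean and SD of 6 libraries beside the points and varenicline 6 as an open diamond. For Col24a1, Col11a1 and Col5a1 varenicline 1 to 5 lie low and varenicline 6 lies among the saline libraries. Col6a3 is highest in varenicline 1 (26.8 CPM) and varenicline 3 (24.7 CPM), the libraries that are also highest for Col25a1. For Col6a3 varenicline 4 (6.48 CPM) also lies over the saline points.

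Collagen XII sits on the surface of fibrils. Col12a1 was 15.3 to 23.6 CPM in saline and 7.24 to 22.0 CPM in varenicline. Varenicline 2 to 5 lay under all saline libraries, while varenicline 1 and 6 lay among them (log2 fold change -0.53 ± 0.24, SE; adjusted p = 0.271, and -0.69 with 0.0567 without varenicline 6). Its sign turned after adjustment for the cortical score, to 0.13. The other members of the class overlapped between groups. Lama2, the alpha chain of laminins around muscle and at the glial surface, had a log2 fold change of 0.03 and Lama1, an alpha chain of the pial surface, 0.23. Col5a2 (0.12), Col13a1 (0.10) and Col14a1 (0.14) had unadjusted p-values of 0.412, 0.638 and 0.600.

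The neuronal class held 5 genes. Collagens XI and XXIV are fibrillar, Col19a1 encodes a collagen linked to synapse formation by interneurons, and Col23a1 and Col25a1 encode collagens that span the cell membrane. An unadjusted p under 0.05 was reached by Col25a1 on the higher side and by Col24a1 and Col11a1 on the lower side. That is 20% and 40%, beside 7.27% and 9.64% of all genes tested. Of the 5 fold changes 4 were below 0, with a median of -0.37. Col5a1, placed in the meningeal class because fibroblasts express it, showed the arrangement of Col24a1 and Col11a1 over the libraries. Type V and type XI collagen chains are close relatives and can join in mixed trimers.

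Because Col5a1, Col11a1 and Col24a1 were alike in which libraries were low, the 250 bases ahead of their RefSeq starts are shown, as GRCm38.p6, plus strand, all 3 genes being on that strand. They are chr2:27886175-27886424, chr3:114030290-114030539 and chr3:145292222-145292471. The genes and the motifs were chosen after the values were seen. Capitals mark matches, on either strand, to the GC box GGGCGG and the CCAAT box CCAAT. The TATA box TATAAA and the T-box site TCACACCT were also searched on both strands.
Col5a1: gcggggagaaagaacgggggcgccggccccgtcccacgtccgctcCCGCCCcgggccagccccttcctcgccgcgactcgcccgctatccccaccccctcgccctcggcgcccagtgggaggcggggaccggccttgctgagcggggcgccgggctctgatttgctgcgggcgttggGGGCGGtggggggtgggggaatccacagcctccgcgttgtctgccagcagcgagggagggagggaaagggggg
Col11a1: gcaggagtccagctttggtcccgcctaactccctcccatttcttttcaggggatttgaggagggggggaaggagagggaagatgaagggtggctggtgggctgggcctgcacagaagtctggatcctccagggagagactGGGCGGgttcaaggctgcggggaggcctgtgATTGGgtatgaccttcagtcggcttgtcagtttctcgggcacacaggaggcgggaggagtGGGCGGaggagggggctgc
Col24a1: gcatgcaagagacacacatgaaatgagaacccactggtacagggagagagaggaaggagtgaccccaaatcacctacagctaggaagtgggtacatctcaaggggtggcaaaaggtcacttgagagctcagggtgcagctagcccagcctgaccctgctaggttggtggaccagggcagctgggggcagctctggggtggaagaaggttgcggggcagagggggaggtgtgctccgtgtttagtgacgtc

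Col5a1 held 2 matches to the GC box, Col11a1 held 2 to the GC box and 1 to the CCAAT box, and Col24a1 held none of the 4 motifs. The GC box was in 32.7% of all 32851 RefSeq promoter windows of that length, the CCAAT box in 33.8%, the TATA box in 12.4% and the T-box site in 1.12%. Of the 40 members with a RefSeq window, 23 held the GC box, 14 the CCAAT box, 5 the TATA box and 0 the T-box site. None of the 4 motifs was in all 3 windows. A match is a description only.

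Col24a1 (chr3:145292472-145552005, plus strand) had the lowest fold change of all members. In saline its lowest, median and highest values were 16.8, 28.1 and 39.5 CPM, and in varenicline 5.69, 9.14 and 29.4 CPM. Varenicline 1 to 5 (5.69 to 15.1 CPM) lay under every saline library, and varenicline 6 lay near the middle of the saline range. Its log2 fold change was -1.23 ± 0.34 (SE; unadjusted p = 0.00233, adjusted p = 0.143; below the saline mean in 5 of 6 libraries). Without varenicline 6 it was -1.67 (adjusted p = 0.00104), and after adjustment for the cortical score it was -0.38 (unadjusted p = 0.148).

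Col11a1 (chr3:114030540-114220326, plus strand) was arranged alike. It had 28.2, 38.0 and 54.2 CPM as lowest, median and highest in saline and 13.7, 19.1 and 43.4 CPM in varenicline. Varenicline 1 to 5 reached at most 25.6 CPM, under every saline library. Its log2 fold change was -0.78 ± 0.24 (SE; adjusted p = 0.151), -1.05 (adjusted p = 0.00176) without varenicline 6 and -0.15 after adjustment for the cortical score. Col5a1 (chr2:27886425-28039510, plus strand) had 23.3, 34.2 and 59.5 CPM in saline and 5.79, 12.3 and 44.7 CPM in varenicline. Its values in varenicline 1 to 5 reached at most 17.8 CPM, and its log2 fold change was -1.19 ± 0.39 (SE; adjusted p = 0.172), -1.75 (adjusted p = 0.00145) without varenicline 6 and -0.18 after that adjustment.

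Col24a1 and Col11a1 went with the markers of cortical excitatory neurons, and the relation was not computed for Col5a1. Across the 12 libraries Col24a1 and the marker score gave a Pearson r of 0.91 (permutation adjusted p = 0.000160 over 4 relations; Spearman rho 0.90, adjusted p = 0.000340). For Col11a1 r was 0.90 (permutation adjusted p = 0.000160; rho 0.90, adjusted p = 0.000340). Both the score and the genes differed between the groups, so the values within groups stand beside them. Within the 6 saline libraries r was 0.57 for Col24a1 and 0.71 for Col11a1 (exact permutation p = 0.251 and 0.110). Within the 6 varenicline libraries r was 0.87 and 0.85 (exact permutation p = 0.0222 and 0.0361). Without varenicline 3 and 5, the libraries farthest from the median score, r was 0.81 and 0.85. The markers did not include a collagen or laminin. The log2 ratio of Col24a1 to Slc17a7, the vesicular glutamate transporter of cortical excitatory neurons, averaged -4.35 ± 0.44 in saline and -4.11 ± 0.73 in varenicline (SD, n = 6 each), a difference of 0.24. The amount of cortical tissue in a dissection and the treatment cannot be told apart in these libraries.

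**Figure D4:**
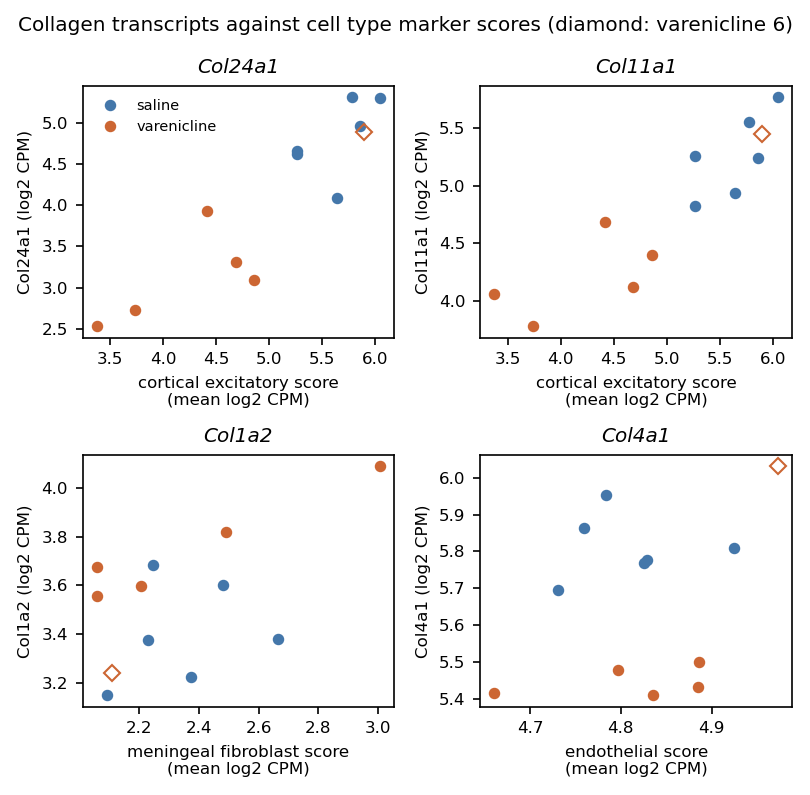
Log2 CPM of 4 collagen genes against the mean log2 CPM of a marker list, 1 point per library, with varenicline 6 as an open diamond. Col24a1 and Col11a1 climb with the cortical excitatory score over all 12 libraries (r of 0.91 and 0.90) and varenicline 6 sits among the saline points, while Col4a1 separates varenicline 1 to 5 from saline at like endothelial scores (r of 0.29).

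For Col4a1 and the endothelial markers r was 0.29 across the 12 libraries (permutation adjusted p = 0.360; rho 0.19, adjusted p = 0.557). Within saline r was 0.05 and within varenicline 0.66 (exact permutation p = 0.917 and 0.210, n = 6 each). Without varenicline 1 and 6 the sign turned, to -0.32. When varenicline 6 was left out and the fit held the cortical score, the log2 fold changes of Col4a1 and Col4a2 were -0.34 and -0.42 (unadjusted p = 0.00658 and 0.00476), and those of Col24a1, Col11a1 and Col5a1 were -0.69, -0.41 and -0.48 (unadjusted p = 0.0984, 0.162 and 0.219). In that fit an unadjusted p under 0.05 was reached by 5 members on the lower side, Col4a1, Col4a2, Col6a2, Col20a1 and Col27a1, and 0 were higher, beside 5.17% and 5.84% of all genes. No member passed the adjusted threshold there. In those libraries the cortical scores of the groups did not overlap, at 5.26 to 6.05 in saline and 3.38 to 4.86 in varenicline 1 to 5. That fit therefore cannot separate the score from the treatment, and its fold changes lean on extrapolation.

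Col25a1, whose product was first found in amyloid plaques, was the most abundant neuronal member at 6.71 FPKM on average. It had 38.6, 41.7 and 49.8 CPM in saline and 40.9, 46.9 and 72.2 CPM in varenicline. As for Col6a3, the highest libraries were varenicline 1 (72.2 CPM) and varenicline 3 (63.1 CPM), and the other 4 varenicline libraries lay within the saline range. The log2 fold change was 0.30 ± 0.12 (SE; adjusted p = 0.242), and without these 2 libraries it was 0.08. Col23a1 was 10.4 to 22.6 CPM in saline and 5.97 to 20.7 CPM in varenicline (-0.37, unadjusted p = 0.215). Col19a1 was 18.8 to 39.1 and 18.4 to 36.7 CPM (-0.27, unadjusted p = 0.144), with its highest varenicline value in varenicline 6. Without that library it was -0.44 (adjusted p = 0.0613), and its sign turned to 0.20 after adjustment for the cortical score.

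The other 27 tested members hold collagens and laminins of cartilage, skin, kidney and eye as well as several that are abundant in this tissue. At an unadjusted p under 0.05, 3 were higher and 2 lower (11.1% and 7.41%, beside 7.27% and 9.64% of all genes tested). The median log2 fold change was 0.13. Col11a2, a chain of type XI collagen, was the most abundant at 10.6 FPKM on average and had a log2 fold change of 0.01 (95% interval -0.19 to 0.21). Col16a1, a fibril-associated collagen, had -0.30 with all libraries and -0.48 (adjusted p = 0.0108) without varenicline 6, which was its highest varenicline library.

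At an unadjusted p under 0.05, Col4a5 (0.36) and Col5a3 (0.36) were higher. Col4a5 encodes a type IV chain best known from kidney, and Col5a3 encodes the alpha 3 chain of type V collagen and was above the saline mean in 6 of 6 varenicline libraries. Col9a1, of the cartilage collagen IX, had 0.91 ± 0.40 (SE) at a level of only 0.256 to 0.905 CPM in saline and 0.399 to 1.59 CPM in varenicline, where 3 counts are worth 0.109 to 0.221 CPM. Col22a1, a collagen of tissue junctions, had -0.66 ± 0.31 (SE; adjusted p = 0.295). The groups overlapped in all 4 genes.

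A further pattern in this class crossed the groups. Col9a3, the alpha 3 chain of collagen IX (9.43 FPKM on average), was 33.7 CPM in saline 2, 35.5 CPM in saline 5, 38.2 CPM in varenicline 1 and 39.6 CPM in varenicline 5, and 16.2 to 25.5 CPM in the other 8 libraries. Col8a1 and Col8a2, chains of the short-chain collagen VIII that were picked after their values were seen, were highest in the same 4 libraries. Col8a1 had 6.07 to 9.91 CPM there and at most 3.82 CPM elsewhere, and Col8a2 had 7.49 to 17.0 CPM there and at most 5.83 CPM elsewhere. These 4 libraries also had the most RNA of choroid plexus markers, the secretory epithelium of the ventricles. The sum of the 11 markers was 1358 to 1989 CPM in them, 663 CPM in varenicline 2 and 85.3 to 197 CPM in the other 7, with 0 markers at 0 in any library. All 11 of 11 markers were above 0 as fold changes, with 0 at an unadjusted p under 0.05. Each group held 2 of the 4 libraries, and the log2 fold changes were 0.22 for Col9a3, 0.18 for Col8a1 and 0.32 for Col8a2. Their part in these fold changes was not tested.

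**Figure D5:**
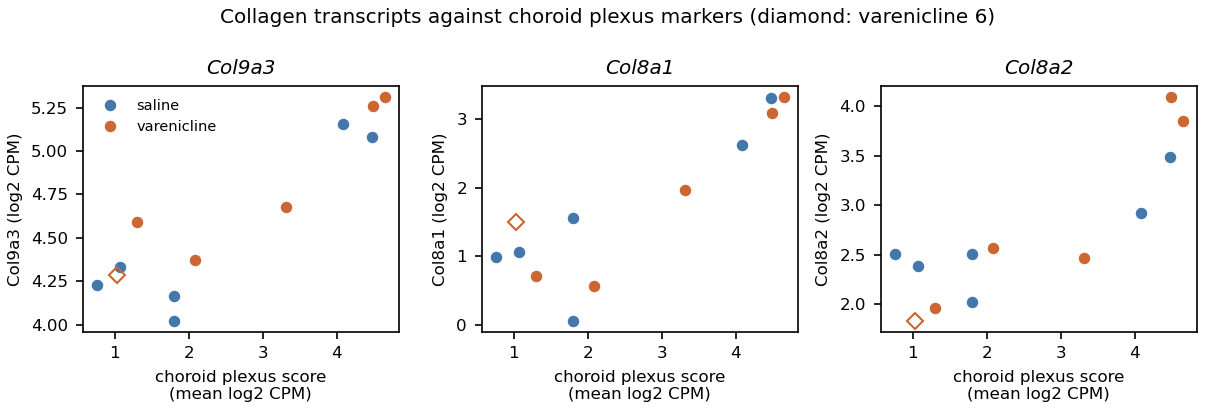
Log2 CPM of Col9a3, Col8a1 and Col8a2 against the mean log2 CPM of 11 choroid plexus markers, 1 point per library, with varenicline 6 as an open diamond. In each panel the 4 libraries with a score over 4 (saline 2 and 5, varenicline 1 and 5) are also the 4 highest for the collagen, in both groups alike.

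The Col9a3 values are uncertain in part, since 229 exon bases (8.05% of its exon length) overlap Tcfl5 on the opposite strand and the sources used here do not say whether strand was used in counting. Tcfl5 had 323 counts over all libraries. Other pairs of type IV genes lie head to head as Col4a1 and Col4a2 do, and their values were looked at for that reason. Col4a3 and Col4a4, 71 bases apart on chromosome 1, had log2 fold changes of 0.25 and 0.23. Col4a5 and Col4a6, 1342 bases apart on chromosome X, had 0.36 and 0.27. In each of the 3 pairs both partners had the same sign, with standard errors from 0.10 to 0.43. Whether so few pairs would share signs by chance was not tested. Col4a4 was 1.78 to 2.61 CPM in saline 2, saline 5, varenicline 1 and varenicline 5, the libraries with the most choroid plexus RNA. Elsewhere it was at most 1.39 CPM. Col4a3 was highest in saline 2, saline 5 and varenicline 5, but not in varenicline 1. Laminin chains of other tissues, Lama3 (0.08) and Lamc3 (0.01), were also looked at after the fact and overlapped between groups. Col9a2, the partner chain of Col9a3, had 0.13.

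Genes that process, bind or break down collagens and laminins were taken from 4 lists with 84 genes in all, of which 78 were tested. At an unadjusted p under 0.05, 5 were higher (6.41%, beside 7.27% of all genes tested) and 4 were lower (5.13%, beside 9.64%). With all 12 libraries none passed the adjusted threshold in edgeR. DESeq2 called Tnr and Timp3, beside 2.63% of all genes tested. Without varenicline 6 the adjusted threshold was passed by 6 of them, Timp3 (0.19, adjusted p = 0.00727) and Postn (0.71, adjusted p = 0.0380) on the higher side (3.6% of all genes) and Tnr (-0.22, adjusted p = 0.00603), Mmp17 (-0.26, adjusted p = 0.0118), Itga7 (-0.41, adjusted p = 0.0361) and Bmp1 (-0.20, adjusted p = 0.0319) on the lower side (7.16% of all genes). Bmp1, which encodes a procollagen protease, was named after its values were seen. The median log2 fold change was 0.02, with 44 of 78 above 0, where 52.3% of all genes tested were above 0. Of 30 tested genes for chain modification, folding and cross-linking, 1 was higher and 0 were lower (3.33% and 0%). It was P4ha1, a subunit of prolyl 4-hydroxylase, which stabilises the collagen helix, at 66.9 to 85.3 CPM in saline and 77.7 to 116 CPM in varenicline (0.25 ± 0.09, SE; adjusted p = 0.181).

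Of 19 matrix partners, Sparc and Postn were higher and Tnr was lower (10.5% and 5.26%, beside 7.27% and 9.64% of all genes tested). Sparc encodes a collagen-binding protein of glia and endothelium, and its log2 fold change was 0.18, above the saline mean in 6 of 6 libraries. Tnr encodes tenascin-R of perineuronal nets and had 86.0 to 92.2 CPM in saline and 71.1 to 88.7 CPM in varenicline (-0.19 ± 0.05, SE; adjusted p = 0.138; below the saline mean in 6 of 6 libraries). Postn, encoding periostin, had 0.57, 0.31 without varenicline 3, 0.71 without varenicline 6 and -0.17 after adjustment for the cortical score. The linkers of the basement membrane, picked after their values were seen, were near 0, with Nid1 at -0.07, Nid2 at 0.05 and Hspg2, encoding perlecan, at -0.09.

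Of 16 receptors, 0 were higher and 1 was lower (6.25%, beside 9.64% of all genes tested). It was the laminin receptor subunit Itga7 (-0.32 ± 0.13, SE; adjusted p = 0.248), whose sign turned to 0.03 after adjustment for the cortical score. Of 13 genes of degradation, 2 were higher and 2 were lower (15.4% each, beside 7.27% and 9.64% of all genes tested). The inhibitors of metalloproteinases Timp3 (0.16 ± 0.04, SE; adjusted p = 0.143) and Timp4 (0.17 ± 0.06, SE; adjusted p = 0.182) were above the saline mean in 6 of 6 varenicline libraries. The membrane-anchored metalloproteinase Mmp17 (-0.22, adjusted p = 0.153) was below it in 5 of 6 and the collagen-cleaving protease Ctsk (-0.38, adjusted p = 0.203) in 6 of 6. In all 9 of these genes the groups overlapped.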

How the data were processed

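RNA of striatum was measured in 6 saline and 6 varenicline libraries, grouped by the treatment in the labels, from TruSeq libraries read as single reads of 150 nt per the labels' protocols. The deposited values used were raw counts per gene, and the authors' FPKM served for comparing genes and for alternatives. The submitters' processing notes name build mm10 and the tools featureCounts, TopHat2, Trimmomatic, FastQC, Cuffnorm, Cuffdiff and DESeq2, without roles. Their versions, the annotation and the strand setting were not given in the sources used here, and the deposited Cuffnorm table was not used here. Exon lengths and gene positions are those of the deposited count table.

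Genes with at least 10 counts in 6 or more libraries were tested with edgeR 4.0.16 (TMM, quasi-likelihood F test at default settings, Benjamini-Hochberg over 15111 genes) in R 4.3.3. CPM were scaled by TMM. Log2 CPM for scores and relations had a prior count of 2, and a score was the mean log2 CPM of a marker list. Relations used two-sided permutation tests with 100000 resamples in scipy 1.17.1, and exact ones within groups. The ratios were of counts within a library. Alternatives used DESeq2 1.42.0, limma 3.58.1, other size factors and filters, FPKM with a pseudocount of 1 or 0.1, marker scores as covariates, and each library left out. The replicates have numbers of deposition order that pair nothing. Promoters came from RefSeq (GRCm38.p6), where 40 members had an entry. Figures were drawn with matplotlib 3.10.9.

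The members, classes and lists were chosen with earlier results of these data known. The genes named were all tested vascular, meningeal and neuronal members, of the others the 4 with the highest FPKM and those with an unadjusted p under 0.05, and up to 3 per direction of each matrix list; the exceptions are marked in the text, and the values of 1 tested member are not reported here. On simulated counts for this comparison (15111 genes, 50 changed at each fold), the edgeR test called 28% of those changed 1.25-fold, and 84%, 98% and 100% of those changed 1.5-fold, 2-fold and 4-fold, with 6 false calls. Each gene was drawn on its own, and changes were set only in genes with a mean of at least 50 counts. No library or marker list was shifted as in the real data, so these shares may not hold for the real libraries. No libraries were duplicates, since chi-square per degree of freedom was at least 5.93 in the 66 pairs. At these depths 3 counts are worth 0.109 to 0.221 CPM, which covers counting error only.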

Additional observations from a re-analysis of the deposited data

Results flagged for a closer look

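There were 84 sets of 6 values (a member in a group, log2 CPM), which did not cover every tested member. In 7 of them a library had a gap to its nearest neighbour that was too large a share of the group's range. For independent sets chance gives 4.2 at about 1 in 20. These sets share the same libraries and are not independent. In 4 of the 7 the library was varenicline 6. It had 6.03 for Col4a1, where the other varenicline libraries had 5.41 to 5.499. It had 6.47 for Col4a2 (others 5.73 to 5.98). It had 5.20 for Col19a1 (others 4.21 to 4.54) and 5.13 for Col16a1 (others 3.96 to 4.35). In varenicline 5, Lama5 was at 5.06 (others 4.59 to 4.76) and Col4a3 at 1.99 (others -0.07 to 0.49). In saline 6, Col22a1 was low at -0.14 (others 0.60 to 0.91). Varenicline 5 was the library with the largest sum of choroid plexus markers, 1989 CPM, and varenicline 6 had a cortical marker sum of 1693 CPM, and the part of either in these values was not tested.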

How the results depend on the processing

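Counts and single fold changes were run in 26 alternative fits. Of 1391 values for 54 genes, 1306 kept direction and side of the adjusted threshold, 70 turned sign and 15 newly passed; 28 genes never turned. Members past the adjusted threshold numbered 0 in every fit except that without varenicline 6, so the range over leaving out 1 library was 0 to 9. Members higher at an unadjusted p under 0.05 (5 as reported) numbered 2 with log2(FPKM + 1), 1 with log2(FPKM + 0.1), 0 with the cortical score as a covariate, 0 with that score and without varenicline 6, and 1 without varenicline 1 and 3. Leaving out 1 library gave 1 (varenicline 1) to 6, with 2 without varenicline 3 and 3 without saline 1, 2, 4 or 6. Members lower (8 as reported) numbered 1 with the cortical score and 5 with it and without varenicline 6. Leaving out 1 library gave 5 (saline 1, 3 or 5, varenicline 2, 3, 4 or 5) to 12 (varenicline 6). Matrix genes higher (5 as reported) numbered 3 with the cortical score, 1 with it and without varenicline 6, and 3 (saline 1, saline 2 or varenicline 3) to 9 (varenicline 6) with 1 library left out; those lower (4 as reported) numbered 0 with the cortical score and 2 (saline 5) to 8 (varenicline 6). The cause of these shifts was not tested. The r of Col1a2 with the fibroblast score was 0.15 to 0.67 with 1 library left out, passing without saline 2 (0.67) or varenicline 3 (0.64), and that of Col4a1 with the endothelial score was 0.03 to 0.40, and -0.32 without the 2 farthest libraries.

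Signs turned with the cortical score for Lama2 (-0.11), Col12a1 (0.13), Col5a2 (-0.20), Col13a1 (-0.13), Col19a1 (0.20), Lamb1 (-0.084), Lama5 (-0.12), Col15a1 (-0.034), Col11a2 (-0.10), Col16a1 (0.034), Col4a3 (-0.054), Lama3 (-0.13), Postn (-0.17), Itga7 (0.031) and Nid2 (-0.0904). With that score and without varenicline 6 they turned for Lama2 (-0.094), Col12a1 (0.37), Col5a2 (-0.032), Col13a1 (-0.17), Col14a1 (-0.14), Col19a1 (0.071), Lama5 (-0.12), Col15a1 (-0.58), Col11a2 (-0.28), Col9a2 (-0.20), Col4a3 (-0.23), Col4a6 (-0.088), Lama3 (-0.30), Sparc (-0.062), Postn (-0.078), Itga7 (0.029) and Nid2 (-0.24). With the endothelial score they turned for Col14a1 (-0.036), Col11a2 (-0.022) and Lamc3 (-0.017), and with the fibroblast score for Col11a2 (-0.00042). Without varenicline 1 and 3 they turned for Lama2 (-0.027), Col1a1 (-0.000399), Lama4 (0.043) and Col15a1 (-0.17). The Col15a1 log2 fold change was also below 0 in limma-voom (-0.00834), with log2(FPKM + 1) (-0.00865) and with log2(FPKM + 0.1) (-0.028).

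With 1 library left out, the fold change ranged across 0 for Lama2 (-0.0082 to 0.091), Col1a1 (-0.057 to 0.10), Col14a1 (-0.10 to 0.27), Lama5 (-0.039 to 0.063), Lama4 (-0.12 to 0.00196), Col15a1 (-0.13 to 0.16), Col11a2 (-0.0305 to 0.074), Col8a1 (-0.20 to 0.72), Col8a2 (-0.00042 to 0.56), Col4a3 (-0.24 to 0.53), Col4a4 (-0.0035 to 0.51), Lamc3 (-0.022 to 0.072), Nid1 (-0.12 to 0.029) and Nid2 (-0.032 to 0.15). The choice of varenicline 6 for the fit with the cortical score rested on these data. The fits without varenicline 1 and 3, the ratios and the counts of groups that do not overlap without varenicline 6 were added after seeing the data. In the last, 7 members were lower (5.31% of all genes) and 0 higher (2.1% of all genes). No paired analysis was possible because every title carries the same replicate number and nothing else ties a saline library to a varenicline library. Depth limits the members with few counts, such as Col9a1, Col22a1 and Col6a6.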
